A study of Mus musculus with 12 samples.

Results

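Conventional dendritic cells of the cDC2 branch were compared between mice that lack the cytokine FLT3L and mice that lack its receptor FLT3. The arrays titled Flt3L KO cDC2 (2 arrays) were set against those titled Flt3 KO cDC2 (2 arrays), which are 4 of the 12 arrays of the series. The members were chosen by their titles, with no measured value involved. The series holds mature cDC1 and cDC2 sorted at steady state from the spleen of WT mice and of mice with the Flt3 KO or the Flt3L KO genotype, with 2 biological replicates for each cell type and genotype. The targeted alleles, strain, age and sex of the mice, and whether mice were pooled for an array, are not stated in the labels. Both knockouts are labelled by genotype alone, with no cell type named for the deletion, and all groups share the digestion of the spleen with collagenase B and DNAse 1. Nothing states whether the cDC1 and cDC2 of a genotype came from the same animals, and the tests see no more than the spread among these arrays.

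FLT3 is a receptor tyrosine kinase carried by dendritic cell progenitors and by mature conventional dendritic cells. FLT3L is its ligand, made by stromal cells and lymphocytes, and its binding drives the expansion of progenitors and the upkeep of dendritic cells in lymphoid organs. In the spleen, cDC1 carry XCR1 and CLEC9A and present antigen from dead cells to CD8 T cells, while cDC2 carry SIRPA and CD11b, depend on IRF4 and are known for priming CD4 T cells. Loss of ligand and loss of receptor both remove the signal, so the comparison asks which transcripts of the remaining cDC2 differ between the ways of losing it.

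Values are deposited array intensities, in arbitrary units on a linear scale, for probe sets that name exactly 1 gene, with the probe set of highest mean taken for each gene. Differences are log2 Flt3L KO cDC2 minus log2 Flt3 KO cDC2, so a positive value is higher with the ligand lost. Tests are limma's moderated test on all 12 arrays with Benjamini-Hochberg adjustment over 14953 genes, and a gene is called at an adjusted p under 0.05. The 4 arrays had median intensities of 59.8 to 61.8 and lower quartiles of 23.5 to 24.3. Replicates correlated at 0.9970 (Flt3L KO) and 0.9969 (Flt3 KO) on the log2 scale, against 0.9951 to 0.9960 between the genotypes. The small number of arrays limits the precision, with a median standard error (SE) of 0.0937 on the log2 scale.

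The receptor gene itself separated the groups. Flt3 (chromosome 5) read 351 and 371 in the Flt3 KO arrays and 1646 and 1637 in the Flt3L KO arrays, beside 1817 and 1742 in WT cDC2. The groups did not overlap, and Flt3 was 4.55-fold higher in Flt3L KO cDC2 (log2 difference 2.19, SE 0.07, adjusted p = 6.01e-09). The remaining signal of the Flt3 probe set in Flt3 KO cells was well above the lower quartile of the arrays. Flt3l (chromosome 7), the ligand gene, read 138 and 131 in Flt3 KO and 109 and 118 in Flt3L KO arrays, with WT at 145 and 149. Its difference of -0.25 (SE 0.08) did not pass the test (adjusted p = 0.174). Set against WT cDC2, Flt3l was called lower in Flt3L KO (-0.37, adjusted p = 0.0267) but not in Flt3 KO (-0.13, adjusted p = 0.819). In cDC1 it read 124 and 124 in Flt3 KO and 119 and 129 in Flt3L KO arrays. The labels do not say which part of Flt3l is deleted, and a probe set outside that part would check nothing.

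Other growth factor receptors of the branch did not pass the test. Csf1r, the receptor for M-CSF and IL-34, read 1576 and 1465 in Flt3 KO and 1581 and 1419 in Flt3L KO arrays (log2 difference -0.02, adjusted p = 0.962). Kit, the receptor for stem cell factor, read 3528 and 3957 with the receptor lost and 3616 and 3769 with the ligand lost (log2 difference -0.02, adjusted p = 0.962). Csf2rb2, a beta chain for IL-3, had 1628 and 1972 in Flt3 KO and 1095 and 1405 in Flt3L KO arrays, a log2 difference of -0.53 with an adjusted p of 0.106. Of 33 tested intermediates of FLT3 signalling, 1 was called, which is 3.03% against 0.930% of all genes tested. That was Fyn, a SRC family kinase, at 617 and 589.5 in Flt3 KO and 815 and 823 in Flt3L KO arrays (log2 difference 0.44, SE 0.08, adjusted p = 0.0245). The call of Fyn was lost with any array left out. None of 22 tested STAT and SOCS genes was called by limma (range -0.21 to 0.35).

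Across all genes, 139 of 14953 were called (0.930%), of which 69 were higher in Flt3L KO cDC2 (0.461%) and 70 were lower (0.468%). The median log2 difference over all genes was 0.003. In each of the 139 genes both arrays of a group lay beyond both arrays of the other, which was true of 43.8% of all genes tested. Only 11 of the higher and 5 of the lower genes differed over 2-fold. At an unadjusted p under 0.05 there were 1892 genes. In the same fit 291 genes were called between Flt3L KO and WT cDC2 (1.95%, with 155 higher or 1.04% and 136 lower or 0.910%) and 16 between Flt3 KO and WT cDC2 (0.107%, with 12 higher or 0.0803% and 4 lower or 0.0268%), 2 comparisons that share the WT arrays. The count depended on single arrays. It was 8 without Flt3L KO replicate 1, 130 without Flt3L KO replicate 2, 50 without Flt3 KO replicate 1 and 21 without Flt3 KO replicate 2, and all 139 kept their sign in each of these. The balance of the calls moved too, with 7 higher and 1 lower without Flt3L KO replicate 1 and 89 higher and 41 lower without Flt3L KO replicate 2. The 8 genes called with any of the 4 arrays left out were Flt3, Mid1, Clec4e, Lnx2, Cd36, Mertk and Vcam1, all higher, and Abca9, which was lower.

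**Figure D1:**
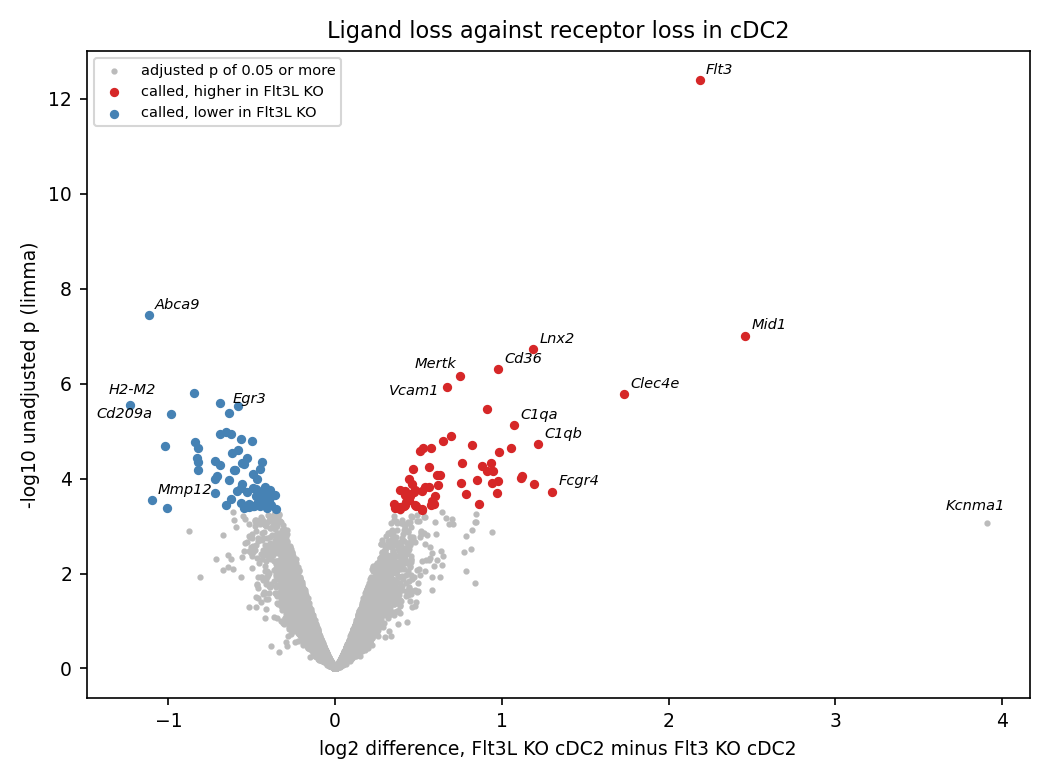
Each point is 1 of 14953 genes, by its log2 difference (Flt3L KO cDC2 minus Flt3 KO cDC2, horizontal) and the negative log10 of limma's unadjusted p (vertical). The 69 genes called higher are red, the 70 called lower are blue, and most of them lie within a 2-fold difference.

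The complement genes C1qa, C1qb and C1qc, which encode the chains of C1q, were higher when the ligand was lost. C1qa read 363 and 279.8 in Flt3 KO arrays and 790.0 and 569 in Flt3L KO arrays, with WT cDC2 at 135 and 157. The order was the same in every array, with WT lowest, Flt3 KO between and Flt3L KO highest. C1qa was 2.10-fold higher in Flt3L KO than in Flt3 KO (log2 difference 1.07, SE 0.15, adjusted p = 0.00697). C1qb read 234 and 174 in Flt3 KO, 569 and 386 in Flt3L KO and 119 and 118 in WT arrays (log2 difference 1.22, SE 0.18, adjusted p = 0.0111). C1qc read 130.1 and 96.0 in Flt3 KO, 339 and 192 in Flt3L KO and 84.0 and 80.5 in WT arrays (log2 difference 1.19, SE 0.22, adjusted p = 0.0277). In all 3 genes replicate 1 was above replicate 2 in both knockouts. Set against WT, C1qa was called in Flt3L KO (log2 difference 2.20, adjusted p = 1.7e-05) and in Flt3 KO (1.13, adjusted p = 0.0107), which share the WT arrays. C1qb and C1qc were called against WT in Flt3L KO (1.99 and 1.63, adjusted p = 0.000178 and 0.00287). In Flt3 KO they were not called against WT (0.77 and 0.44, adjusted p = 0.230 and 0.718). Over the alternatives the adjusted p of the 3 genes between the knockouts ran from 0.00105 to 0.0708 for C1qa, 0.00228 to 0.126 for C1qb and 0.00181 to 0.244 for C1qc, and each lost its call without Flt3L KO replicate 1 and without Flt3 KO replicate 2 (C1qc also without Flt3 KO replicate 1).

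Mertk and Vcam1 were higher as well. Mertk, a receptor tyrosine kinase that binds phosphatidylserine through bridging proteins, read 36.9 and 33.3 in Flt3 KO and 60.6 and 57.4 in Flt3L KO arrays, with WT at 30.4 and 28.6. It was 1.68-fold higher (log2 difference 0.75, SE 0.08, adjusted p = 0.00175) and kept its call with any array left out. Vcam1, the ligand of the integrin VLA-4, read 129.6 and 121 in Flt3 KO, 194 and 205 in Flt3L KO and 84.5 and 90.9 in WT arrays. Its log2 difference was 0.67 (SE 0.08, adjusted p = 0.00245). Axl, a relative of Mertk, read 234 and 176 in the 2 Flt3 KO arrays against 330.1 and 274 in the 2 of Flt3L KO and did not pass the test (log2 difference 0.57, adjusted p = 0.120). Other receptors for uptake, Tyro3, Timd4, Stab1, Stab2 and Marco, did not pass either, with log2 differences from -0.25 (Timd4) to 0.10 (Stab2). Of 36 tested genes for adhesion and integrins, Vcam1 was the 1 called (2.78%, against 0.930% of all genes, list median -0.04). In both Mertk and Vcam1 the Flt3L KO arrays lay above all 4 others of the branch, and the bridging protein gene Gas6 read 40.1 and 41.7 in Flt3 KO and 40.7 and 39.8 in Flt3L KO arrays, close to the level in WT.

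These genes belong to 2 lists. Of 34 genes for complement and the clearance of dying cells, 27 were tested, and 5 of the 27 were called higher and none lower (18.5%, against 0.930% of all genes). The median of the 27 was 0.06, so most of the list did not share the rise. Of 22 markers of splenic red pulp and marginal zone macrophages, 20 were tested, with 6 called higher (C1qa, C1qb, C1qc, Treml4, Mertk and Vcam1) and 1 lower (Hpgd), which is 35.0%. The median of the 20 was 0.26. It was 0.67 over the fewer members that remain with the dimmest share of 0.5 of genes left out, which is not a median of the same genes. The list holds the C1q genes, Mertk and Vcam1 that the text has already given. The summed intensity of all 22 was 5034 to 5100 in Flt3 KO arrays and 5822 to 6386 in Flt3L KO arrays, against 4672 to 4761 in WT. The defining markers did not move together. Cd5l read 17.9 to 29.1 over the 4 knockout arrays, around the lower quartile of the arrays, and was too dim to be tested. Cd163, a haemoglobin scavenger receptor, read 26.0 and 29.9 in Flt3 KO and 29.2 and 28.1 in Flt3L KO arrays. Spic, the transcription factor of red pulp macrophages, read 158 and 197 with the receptor lost and 195 and 311 with the ligand lost (log2 difference 0.48, adjusted p = 0.357), with overlapping groups. Adgre1, which encodes F4/80, was 742 and 905 in the 2 Flt3 KO arrays against 601 and 617 in the 2 of Flt3L KO (log2 difference -0.43, adjusted p = 0.0663). In sorted bulk cells, more RNA of a gene per cell and more cells of a type that carries it cannot be told apart, and the part of macrophage RNA in these results was not tested.

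**Figure D2:**
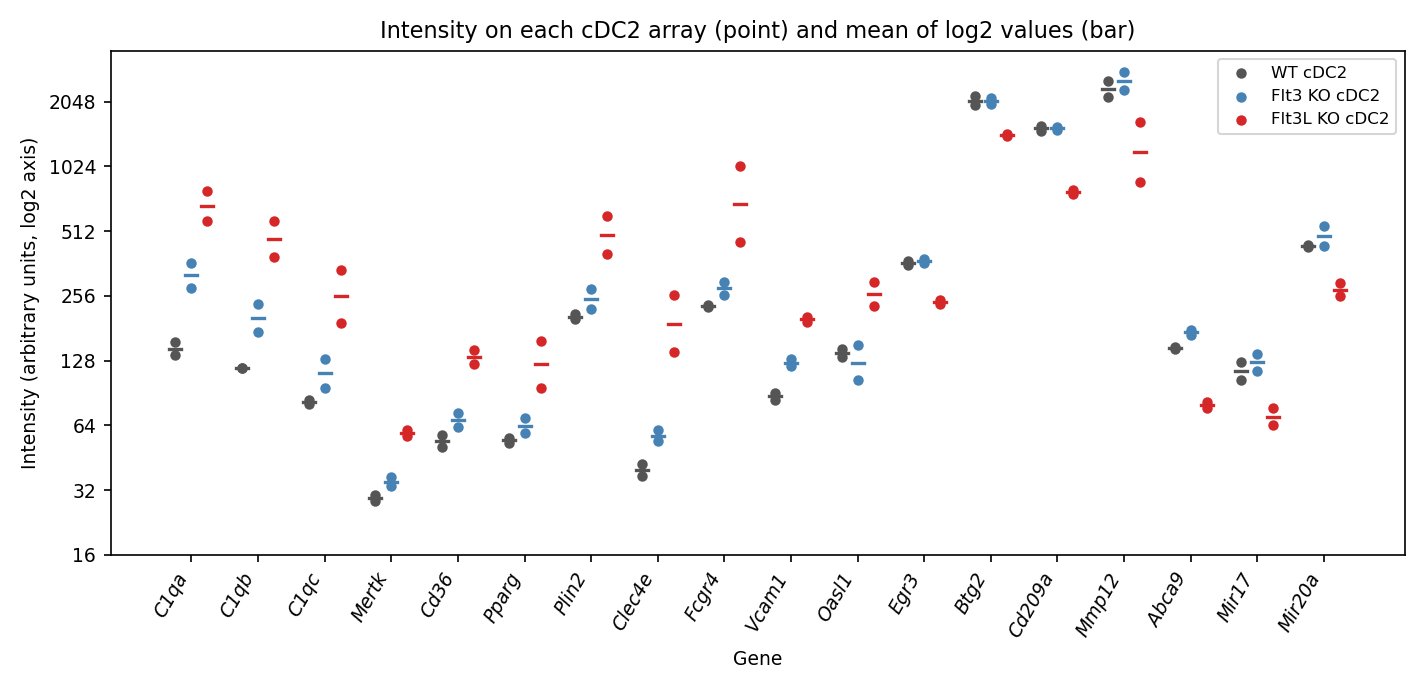
Intensity (log2 axis, arbitrary units) of 18 genes on each of the 2 WT (grey), 2 Flt3 KO (blue) and 2 Flt3L KO (red) cDC2 arrays, with points for arrays and bars for the mean of the log2 values. The C1q genes are ordered WT, Flt3 KO, Flt3L KO from low to high, whereas Cd209a, Egr3 and Btg2 have WT and Flt3 KO together and Flt3L KO below. Among the C1q genes only C1qa was called in Flt3 KO against WT.

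Genes of lipid handling were among the higher ones. Cd36, a scavenger receptor and fatty acid transporter, read 72.9 and 63.2 in Flt3 KO and 143 and 124 in Flt3L KO arrays, with WT at 51.1 and 57.7. It was 1.97-fold higher (log2 difference 0.98, SE 0.10, adjusted p = 0.00147), and its call held with any array left out. Plin2, a coat protein of lipid droplets, read 274 and 223 in Flt3 KO and 599 and 399 in Flt3L KO arrays (log2 difference 0.98, SE 0.15, adjusted p = 0.0122). Pparg, a nuclear receptor of lipid metabolism, read 58.8 and 69.5 with the receptor lost and 158 and 95.4 with the ligand lost (log2 difference 0.94, SE 0.17, adjusted p = 0.0268). WT cDC2 read 199 and 211 for Plin2 and 53.1 and 56.0 for Pparg, below both knockouts in each. Plin2 lost its call without Flt3L KO replicate 1 or Flt3 KO replicate 2, and Pparg without any of the 4 arrays but Flt3L KO replicate 2. Of 24 tested genes of sterol efflux and fatty acid handling these 3 were called (12.5%, against 0.930% of all genes). None was called lower, and the median of the list was 0.00. Apoe, an apolipoprotein, read 562 and 429 in the 2 Flt3 KO arrays against 779.7 and 653 in the 2 of Flt3L KO with an adjusted p of 0.0593. None of 23 tested cholesterol synthesis genes was called by limma (range -0.17 to 0.25).

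Receptors of innate recognition moved in both directions. Clec4e, which encodes the glycolipid receptor Mincle, read 60.7 and 53.9 in Flt3 KO arrays and 258 and 141 in Flt3L KO arrays, beside 37.4 and 42.5 in WT. It was 3.33-fold higher (log2 difference 1.74, SE 0.21, adjusted p = 0.00276), with the Flt3L KO replicates far apart but both above the rest. Fcgr4, an activating receptor for IgG, read 298 and 259 in Flt3 KO and 1027 and 456 in Flt3L KO arrays (log2 difference 1.30, SE 0.25, adjusted p = 0.0324). Its replicates in Flt3L KO differed by more than 2-fold, and its adjusted p over the alternatives ran from 1.52e-05 to 0.243. Treml4, a receptor that binds late apoptotic cells, read 388 and 279 in Flt3 KO and 671 and 569.7 in Flt3L KO arrays (log2 difference 0.91, adjusted p = 0.0195). Ace, the angiotensin-converting enzyme, which like Treml4 is high in non-classical monocytes, read 420.2 and 328 with the receptor lost and 718 and 568 with the ligand lost (log2 difference 0.78, adjusted p = 0.0337). WT cDC2 read 331 and 424 for Treml4 and 344 and 348 for Ace, within or next to the range of the Flt3 KO arrays. In the knockout cDC1 arrays Treml4 read 1336 to 1987, above its level in cDC2, and Ace read 46.3 to 60.8, below it. Of 15 monocyte markers 9 were tested, and these 2 were called (22.2%, against 0.930% of all genes). The summed intensity of the 13 monocyte markers with a value was 11735 to 11926 in Flt3 KO and 11612 to 12613 in Flt3L KO arrays. Ccr2, a defining monocyte receptor, read 155 and 119 in the 2 Flt3 KO arrays against 121 and 105 in the 2 of Flt3L KO, and F13a1 was at 23.5 and 25.0 in Flt3 KO and 25.4 and 27.0 in Flt3L KO arrays, too dim to be tested. The part of monocyte RNA in these results was not tested.

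Among the falls was Cd209a, a C-type lectin related to DC-SIGN and a cDC2 gene. It read 1562 and 1517 in Flt3 KO arrays and 759 and 799 in Flt3L KO arrays, while WT was at 1587 and 1491. Flt3 KO and WT thus overlapped, and Flt3L KO lay 1.98-fold below Flt3 KO (log2 difference -0.98, SE 0.13, adjusted p = 0.00429). Without Flt3L KO replicate 1 its log2 difference was close to the same but the adjusted p rose to 0.0687. Clec9a, the receptor of cDC1 for actin exposed by dead cells, was dimmer in cDC2 and read 206 and 255 in Flt3 KO and 123 and 160.0 in Flt3L KO arrays (log2 difference -0.71, SE 0.13, adjusted p = 0.0226), with WT at 167 and 156. Of 32 tested C-type lectins, 1 was called higher and 2 lower (9.38%, against 0.930% of all genes), and the median was -0.13. Mgl2, another lectin of cDC2, read 116 and 116 with the receptor lost and 82.1 and 87.1 with the ligand lost and did not pass (log2 difference -0.45, adjusted p = 0.0643).

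Of the identity genes of cDC2, most did not pass the test between the knockouts and Cd4 was lower with the ligand lost. Sirpa read 3695 and 3776 in Flt3 KO and 3751 and 3626 in Flt3L KO arrays, against 101 to 149 in the cDC1 arrays of the same knockouts, so the sorted cells carried the marker of their branch. Itgam, which encodes CD11b, read 678 and 569.8 in the 2 Flt3 KO arrays against 686 and 624 in the 2 of Flt3L KO, and Irf4 read 841 and 939.6 in Flt3 KO and 785 and 881 in Flt3L KO arrays. Neither passed the test (adjusted p = 0.856 and 0.816). Itgax (CD11c), Zbtb46 and Esam had log2 differences of -0.10, -0.13 and -0.10. Xcr1, the chemokine receptor of cDC1, read 56.3 and 63.1 with the receptor lost and 62.0 and 70.6 with the ligand lost, against 2421 to 3020 in the knockout cDC1 arrays. Irf8 and Batf3, transcription factors on which cDC1 depend, differed by 0.04 and -0.09 and were not called. Cd4, carried by part of the splenic cDC2, was lower at 414 and 500.1 in Flt3L KO against 665 and 676 in Flt3 KO arrays (log2 difference -0.56, SE 0.10, adjusted p = 0.0279). WT cDC2 read 618 and 591 for Cd4, and Flt3L KO was not called against WT (-0.41, adjusted p = 0.0655). Over the alternatives the log2 difference of Cd4 between the knockouts ran from -0.69 to -0.42. Its call held only without Flt3L KO replicate 2 when an array was left out. Clec4a4, which encodes the cDC2 antigen DCIR2, read 295 and 293 in the 2 Flt3 KO arrays against 221 and 222 in the 2 of Flt3L KO, with an adjusted p of 0.201.

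By list, 2 of 29 tested cDC2 genes were called, both lower (6.90%, against 0.468% of all genes called lower, list median -0.10). These were Cd209a and Mmp12, the macrophage metalloelastase, which read 2334 and 2809.5 in Flt3 KO and 865 and 1647 in Flt3L KO arrays (log2 difference -1.10, SE 0.22, adjusted p = 0.0403). The Mmp12 replicates in Flt3L KO differed nearly as much from each other as from Flt3 KO, and the adjusted p over the alternatives ran from 0.000679 to 0.283. Of 26 tested cDC1 genes, 3 were called higher and 1 lower (15.4%, against 0.930% of all genes). The higher ones were Cd36, Ifi205, an AIM2-like gene, at 48.7 and 53.0 against 150.1 and 81.0, and P2ry14, a receptor for UDP-glucose, at 50.5 and 45.8 against 82.8 and 65.2. In knockout cDC1, P2ry14 read 1171 to 1362, so its level in cDC2 stayed far below that of the other branch. Of 18 tested genes tied to ESAM-high cDC2 and Notch2, 1 was called higher and 2 lower (16.7%, against the same 0.930%). Cdh17, a cadherin, read 106 and 83.6 in Flt3 KO and 179.9 and 159 in Flt3L KO arrays (log2 difference 0.85, adjusted p = 0.0251), with WT at 121 and 171. Rbpj, the transcription factor of Notch signalling, read 671 and 708 in Flt3 KO and 511 and 544 in Flt3L KO arrays (log2 difference -0.39, adjusted p = 0.0443). The log2 difference of Rbpj ran from -0.43 to -0.29 over the alternatives. Its call was lost with the mean of its probe sets, without a filter on dim genes, on the arrays compared alone and with any array left out. Among 23 tested genes of ESAM-low cDC2, 1 was called higher (Fcgr4) and 1 lower (Cd209a), which is 8.70% against 0.930% of all genes (list median 0.01). Of 44 tested transcription factors of dendritic cells, 2 were called, Rbpj and Prdm1 (4.55%, median -0.04). Prdm1, which encodes the repressor BLIMP-1, was lower at 266 and 282 in Flt3L KO against 376 and 408 in Flt3 KO arrays (log2 difference -0.52, adjusted p = 0.0443). The call of Prdm1 was lost without a filter on dim genes and with any array left out.

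The largest falls among the other named genes were those of H2-M2 and Abca9. H2-M2, a non-classical MHC class I gene, read 668 and 823 in Flt3 KO and 274 and 363 in Flt3L KO arrays (log2 difference -1.23, SE 0.15, adjusted p = 0.00362). WT cDC2 read 363 and 418, so here the Flt3 KO arrays stood above both other genotypes. It was the 1 called gene of 17 tested for MHC class I supply (5.88%, against 0.930% of all genes). The other 16 were above 0 (list median 0.09). Abca9, an ABC transporter of the A subfamily, read 169 and 177 in Flt3 KO, 77.4 and 82.1 in Flt3L KO and 146 and 148 in WT arrays. It was 2.17-fold lower with the ligand lost (log2 difference -1.12, SE 0.09, adjusted p = 0.000265), and its call held with any array left out. Lrrc32, which encodes GARP, a docking receptor for latent TGF-beta, read 197 and 245 with the receptor lost and 113 and 136 with the ligand lost (log2 difference -0.82, adjusted p = 0.0111). Adgrl3, an adhesion receptor, read 401 and 501 in the 2 Flt3 KO arrays against 256 and 289.7 in the 2 of Flt3L KO, below the WT arrays at 537 and 547 in both knockouts (log2 difference -0.72, adjusted p = 0.0246). Hpgd, which degrades prostaglandins, read 600.1 and 534 in Flt3 KO and 378 and 326 in Flt3L KO arrays (log2 difference -0.69, adjusted p = 0.0176). The call of Hpgd was lost with any array left out. Rasgrp3, an exchange factor for RAS, read 476 and 453 with the receptor lost and 281 and 311 with the ligand lost (log2 difference -0.66, adjusted p = 0.00889). The other named falls were Pnma1, Hepacam2, Fam135a, Klrb1b, Cd101, Tbc1d30 and the glucose transporter gene Slc2a3, with log2 differences from -0.82 (Pnma1) to -0.44 (Slc2a3).

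The rises were led by Mid1, which encodes a microtubule-associated ubiquitin ligase. Mid1 read 198 and 359 in Flt3 KO, 1555 and 1382 in Flt3L KO and 398 and 395 in WT arrays, and was 5.50-fold higher in Flt3L KO than in Flt3 KO (log2 difference 2.46, SE 0.23, adjusted p = 0.000484). Smpdl3b, a phosphodiesterase of the cell surface, read 98.5 and 88.1 in the 2 Flt3 KO arrays against 269 and 152 in the 2 of Flt3L KO (log2 difference 1.12, adjusted p = 0.0226). S1pr1, the receptor for sphingosine 1-phosphate, read 36.1 and 44.8 in Flt3 KO and 63.9 and 66.2 in Flt3L KO arrays, with WT at 38.0 and 42.4 (log2 difference 0.69, adjusted p = 0.00939). Il12rb2, a chain of the IL-12 receptor, read 454 and 424 in Flt3 KO and 750 and 602 in Flt3L KO arrays (log2 difference 0.61, adjusted p = 0.0288). Bcl2l1, which encodes the survival protein BCL-XL, was the 1 called member of 18 tested BCL2 family genes (5.56%, against 0.930% of all genes, list median 0.00) and read 92.1 and 87.7 against 120.1 and 119 (log2 difference 0.41, adjusted p = 0.0443). Ddit3, which encodes the stress factor CHOP, read 518 and 609 with the receptor lost and 758 and 800.0 with the ligand lost and was the 1 called member of 23 tested genes of the unfolded protein response, which is 4.35% (list median 0.06). Its log2 difference was 0.47 (adjusted p = 0.0324). Kdr, a VEGF receptor of endothelium, read 52.8 and 52.9 in the 2 Flt3 KO arrays against 113 and 81.7 in the 2 of Flt3L KO (log2 difference 0.86, adjusted p = 0.0443), while the 12 tested stromal and endothelial markers had 1 call (8.33%) and a median of 0.06. Bcl2l1 and Ddit3 lost their calls with any 1 of the 4 arrays left out, and Kdr, Smpdl3b and Il12rb2 with any but Flt3L KO replicate 2. Kcnma1, the pore of a calcium-activated potassium channel, had the biggest difference of all genes tested but did not pass, and it was picked out after its values were seen. It read 19.6 and 18.9 in Flt3 KO and 953 and 87.6 in Flt3L KO arrays, a log2 difference of 3.91 with an SE of 0.90 and an adjusted p of 0.0648. The 2 Flt3L KO replicates thus stood over 10-fold apart, and the cDC1 arrays split the same way, at 689 and 96.9 in Flt3L KO and 17.2 and 17.5 in Flt3 KO.

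Interferon-stimulated genes leaned upward with the ligand lost, though few were called. Of 41 listed genes 32 were tested, 3 of them were called higher and none lower (9.38%, against 0.930% of all genes), and the median was 0.31. All 32 had a log2 difference above 0, and in 22 both Flt3L KO arrays lay above both Flt3 KO arrays. Over all genes tested, 51.1% were above 0 and 22.1% had both Flt3L KO arrays above both Flt3 KO arrays. The list leaned the same way in cDC1, where the median was 0.23, 28 of the 32 were above 0 and 1 was called higher. None of the 32 was called in the test of the difference between the branches. Oasl1, which limits the translation of IRF7, read 104 and 151 in Flt3 KO and 296 and 229 in Flt3L KO arrays, with WT at 145 and 133 (log2 difference 1.05, SE 0.16, adjusted p = 0.0111). Ifi27l2a read 657 and 609 in Flt3 KO and 1299 and 1045 in Flt3L KO arrays (log2 difference 0.88, SE 0.15, adjusted p = 0.0178), and WT lay between at 843 and 736. Mx2, an antiviral GTPase, read 32.6 and 31.6 with the receptor lost and 45.7 and 40.2 with the ligand lost, with WT at 38.2 and 38.7 (log2 difference 0.42, adjusted p = 0.0324). Irf7, the regulator of type I interferon genes, read 505 and 524 in the 2 Flt3 KO arrays against 961 and 663 in the 2 of Flt3L KO and did not pass (log2 difference 0.63, adjusted p = 0.131). The list was carried more by 1 array than by the other. Its summed intensity was 11433 to 11686 in Flt3 KO, 17369 in Flt3L KO replicate 1, 13635 in Flt3L KO replicate 2, and 12661 to 13660 in WT, so Flt3L KO replicate 2 lay within the WT range. The median of the list was 0.23 without Flt3L KO replicate 1 and 0.47 without replicate 2, and none of the 3 genes was called without Flt3L KO replicate 1 or without Flt3 KO replicate 1. In the 250 bases before the transcription start, the letters GAAANNGAAA of an interferon-stimulated response element were found on either strand in 15 of 35 promoter windows of the listed genes (42.9%), against 2.98% of 32851 windows. Oasl1 had no match, and Ifi27l2a and Mx2 had no promoter window. The matches include Gbp2, Igtp and Isg15, which had no value here, and Ifit3b, which was not tested. The share describes the letters before genes already listed as interferon-stimulated and says nothing of their levels on these arrays.

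Cell cycle genes had many small differences above 0. Of 53 tested genes, 52 had a log2 difference above 0, the median was 0.30, and 2 were called, both higher (3.77%). Over all genes tested, 51.1% were above 0 and 0.461% were called higher. Ccnb2, which encodes cyclin B2, read 393 and 298 in Flt3 KO and 556 and 471 in Flt3L KO arrays, beside 373 and 369.8 in WT (log2 difference 0.58, SE 0.12, adjusted p = 0.0408). Ube2c, the ubiquitin-conjugating enzyme of the anaphase-promoting complex, read 57.2 and 49.7 in Flt3 KO and 74.6 and 73.7 in Flt3L KO arrays (log2 difference 0.48, SE 0.09, adjusted p = 0.0324). Mki67, the proliferation marker Ki-67, read 581 and 471 in Flt3 KO, 771 and 717 in Flt3L KO and 576 and 657 in WT arrays, and did not pass (log2 difference 0.51, adjusted p = 0.0933). In both knockouts the median member was 0.23 higher in replicate 1 than in replicate 2 on the log2 scale, a spread close to the difference between the knockouts. The median was 0.15 without Flt3L KO replicate 1 and 0.16 without Flt3 KO replicate 2, and 0.42 without either of the other arrays. Neither gene was called without Flt3L KO replicate 1 or without Flt3 KO replicate 2, nor Ube2c without Flt3L KO replicate 2. In cDC1 the median of the same 53 genes was 0.00, with 27 above 0.

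Immediate early genes, which follow receptor signalling through ERK within minutes, leaned downward. Of 34 tested genes, 2 were called, both lower (5.88%, against 0.468% of all genes called lower), 4 had a difference above 0, and in 24 both Flt3L KO arrays lay below both Flt3 KO arrays, which was true of 21.7% of all genes. The median was -0.18, and it stayed between -0.18 and -0.13 with any of the 4 arrays left out. In cDC1 the median of the same 34 genes was also -0.18, with 3 called lower and 13 above 0. None of the 34 was called in the test of the difference between the branches. Egr3, a zinc finger transcription factor, read 366 and 382 in Flt3 KO and 245 and 235 in Flt3L KO arrays, with WT at 371 and 355 (log2 difference -0.64, SE 0.08, adjusted p = 0.00429). Btg2, an antiproliferative gene induced by p53 and growth factors, read 2138 and 1996 with the receptor lost and 1449 and 1416 with the ligand lost, with WT at 1970.3 and 2173 (log2 difference -0.53, SE 0.08, adjusted p = 0.0151). For both genes WT and Flt3 KO overlapped, and Flt3L KO was below them. Egr1 read 576 and 551 in Flt3 KO and 447 and 460.3 in Flt3L KO arrays and did not pass (log2 difference -0.31, adjusted p = 0.152). Fos, Jun and Dusp1 differed by -0.03, -0.06 and -0.05, within the SE of each gene. Egr3 lost its call without Flt3L KO replicate 1 or Flt3 KO replicate 2 and Btg2 without any 1 of the 4 arrays, and over the alternatives the highest adjusted p was 0.0552 for Egr3 and 0.114 for Btg2.

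The promoter of Btg2 is shown because it is 1 of 3 windows among 32 of the immediate early list (9.38%) that hold the palindrome TGACGTCA of the cAMP response element, against 1.55% of all 32851 windows. The others were those of Dusp1 and Plk2. The window is the 250 bases before the start of transcription, chr1:134079156-134079405 on the minus strand of GRCm38.p6, from RefSeq, written 5′ to 3′ with the match in capitals. The match ends 158 bases before the start and is a description of the letters only.
Btg2 promoter: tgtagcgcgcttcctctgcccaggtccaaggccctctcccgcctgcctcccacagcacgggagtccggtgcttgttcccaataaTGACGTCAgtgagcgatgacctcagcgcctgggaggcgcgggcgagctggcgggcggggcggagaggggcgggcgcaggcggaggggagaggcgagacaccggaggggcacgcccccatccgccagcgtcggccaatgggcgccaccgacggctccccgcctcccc

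**Figure D3:**
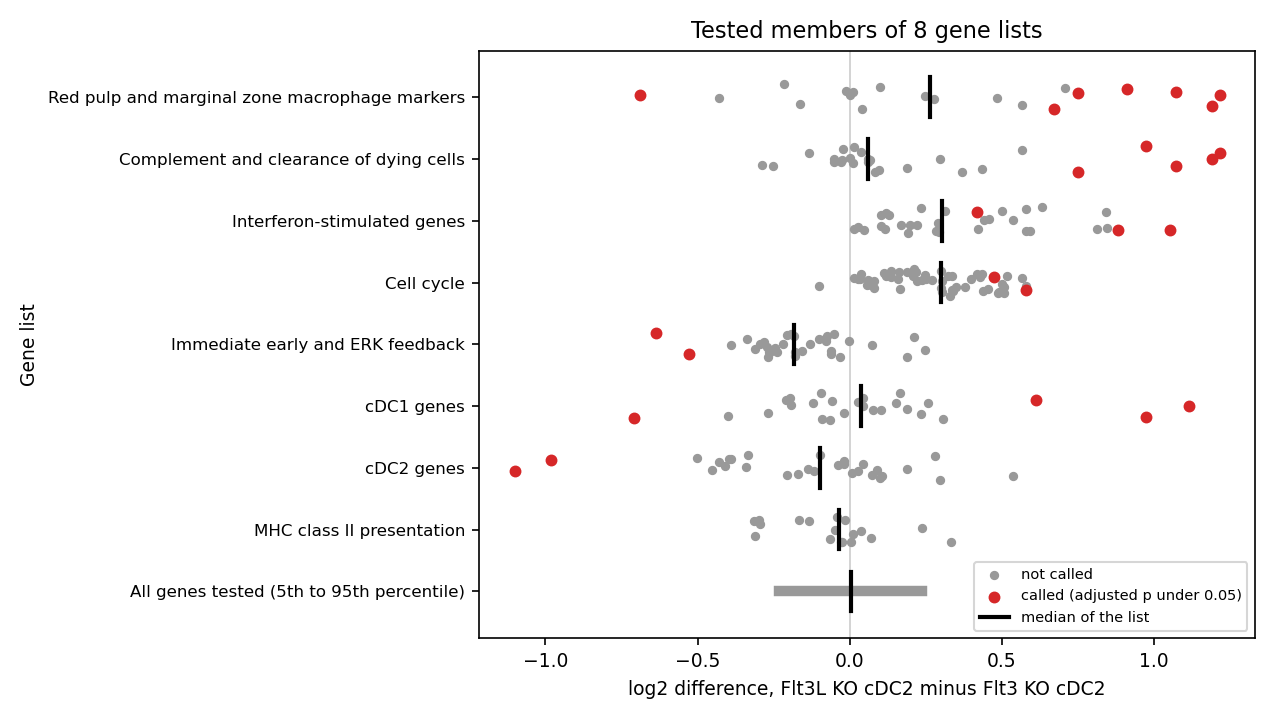
Log2 difference (Flt3L KO cDC2 minus Flt3 KO cDC2) of each tested member of 8 gene lists, with called genes in red and the median of each list as a black bar, above the range of all genes tested. The interferon and cell cycle lists lie mostly to the right of 0 (medians 0.31 and 0.30) and the immediate early list to the left (-0.18), and the clearance list is centred near 0 (0.06) with 5 called genes to the right.

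A group of small RNA genes was lower in Flt3L KO cDC2. The naming rule left such genes out, and they were picked after their values were seen. The array measures probe sets at the miRNA genes in total RNA, which cannot tell the hairpin precursor from the mature miRNA. Mir17, Mir18, Mir19a and Mir20a lie in 1 cluster on chromosome 14, the oncogenic miR-17-92 cluster, and were the 4 of its 6 miRNA genes that were tested. Their mature products are shown because they form 3 seed families within 1 transcript. The seed (bases 2 to 8) is in capitals, the sequences are RefSeq's, and positions are on the plus strand of GRCm38.p6.
miR-17-5p, chr14:115043684-115043706: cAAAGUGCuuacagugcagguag
miR-20a-5p, chr14:115044183-115044205: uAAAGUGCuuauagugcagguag
miR-18a-5p, chr14:115043867-115043889: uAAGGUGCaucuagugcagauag
miR-19a-3p, chr14:115044048-115044070: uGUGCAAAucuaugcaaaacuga
miR-17-5p and miR-20a-5p share a seed, and within the seed miR-18a-5p differs from miR-17-5p by A4G, counted from the 5′ end.

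Mir17 read 115 and 137 in Flt3 KO and 76.9 and 64.2 in Flt3L KO arrays, with WT at 104 and 126 (log2 difference -0.84, SE 0.12, adjusted p = 0.0103). Mir20a read 436 and 543 in the 2 Flt3 KO arrays against 293 and 257 in the 2 of Flt3L KO, with WT at 444 and 432 (log2 difference -0.83, SE 0.13, adjusted p = 0.0151). Mir18 read 196 and 239.7 in Flt3 KO and 120.4 and 96.5 in Flt3L KO arrays, with WT at 182 and 179 (log2 difference -1.01, SE 0.21, adjusted p = 0.0465). In these 3 genes the Flt3L KO arrays were below all 4 others. Mir19a, whose seed differs from those of the other sequences shown, read 77.0 and 98.1 with the receptor lost and 57.0 and 39.4 with the ligand lost. It did not pass (log2 difference -0.87, SE 0.21, adjusted p = 0.0806). The host gene Mir17hg did not follow its miRNAs. It read 44.2 and 50.3 in Flt3 KO and 50.1 and 59.8 in Flt3L KO arrays (log2 difference 0.21, adjusted p = 0.494). With 1 of the 4 arrays left out, Mir17 and Mir20a kept their calls only without Flt3 KO replicate 1 and Mir18 in no case, and their adjusted p over the alternatives reached 0.123 (Mir17), 0.154 (Mir20a) and 0.318 (Mir18).

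Small nucleolar RNA genes were lower too, a class again picked after its values were seen. Of 48 tested genes named Snora or Snord, 7 were called lower and none higher (14.6%, against 0.468% of all genes called lower), 41 were below 0 and the median was -0.28. In cDC1 the median of the same genes was 0.00, with 1 called higher. The small nucleolar RNA genes Snord49a and Snord49b had log2 differences of -1.02 (adjusted p = 0.0111) and -0.69 (0.00889). Snord47, Snord15b, Snord22, Snora33 and Snora20 were called too, from -0.84 (Snora20) to -0.49 (Snord22). These RNAs guide the modification of ribosomal RNA and are cut from introns of their host genes. Snora20 was also the only called gene with a group mean under the lower quartile of the arrays, at 20.3 and 21.8 in Flt3L KO against 36.6 and 38.9 in Flt3 KO arrays. Of 135 tested miRNA genes, 4 were called lower and none higher (2.96%), and the median was 0.03 with 75 above 0, so the falls were not shared by most miRNA genes. Beside Mir17, Mir18 and Mir20a the called one was Mir674. It read 391 and 476 in the 2 Flt3 KO arrays against 252 and 273 in the 2 of Flt3L KO (log2 difference -0.72, adjusted p = 0.0324). None of the called small nucleolar RNA genes, nor Mir674, kept its call without Flt3L KO replicate 1, though each kept its direction. Whether the quality or yield of short RNA differed between the arrays was not tested.

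Genes beside the targeted loci were examined apart, since a targeted allele can carry flanking DNA of the strain it was made in. Among the 20 tested genes on each side of Flt3, 2 were called higher in Flt3L KO than in Flt3 KO cDC2 and 1 was called lower, 3 of 40 beside 0.930% of all genes. Lnx2, a ubiquitin ligase that binds NUMB, read 91.3 and 98.7 in Flt3 KO, 231 and 203 in Flt3L KO and 163 and 171 in WT arrays. Flt3 KO was thus below WT and Flt3L KO above it (log2 difference between the knockouts 1.19, SE 0.12, adjusted p = 0.000702). Against WT, Lnx2 was called in Flt3 KO (-0.81, adjusted p = 0.0244) but not in Flt3L KO (0.38, adjusted p = 0.136). Polr1d, which encodes a small subunit found in both RNA polymerase I and RNA polymerase III, read 589 and 561 in Flt3 KO and 772 and 734 in Flt3L KO arrays, with WT at 794 and 692 (log2 difference 0.39, SE 0.08, adjusted p = 0.0465). Slc46a3, a lysosomal transporter, read 1296 and 1236 with the receptor lost and 1003 and 839 with the ligand lost, with WT at 1202 and 1209 (log2 difference -0.46, SE 0.09, adjusted p = 0.0432). Lnx2 and Polr1d were called in the same direction in cDC1, at 1.54 and 0.45, while Slc46a3 was not (-0.06). The third neighbour called in cDC1 was Rfc3, a subunit of the clamp loader of DNA replication, at -0.48 (adjusted p = 0.0494), and it did not pass in cDC2 (-0.23, adjusted p = 0.357). Lnx2 kept its call with any array left out, and Polr1d and Slc46a3 lost theirs without any 1 of the 4 arrays. Polr1d and Slc46a3 also lost their calls without a filter on dim genes and on the arrays compared alone. The call of Polr1d was lost with the mean of its probe sets too. Its log2 difference ran from 0.21 to 0.43 over the alternatives. None of the 40 neighbours of Flt3l was called, with log2 differences from -0.40 to 0.29 and a lowest adjusted p of 0.113. The strain of the flanking DNA was not tested.

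**Figure D4:**
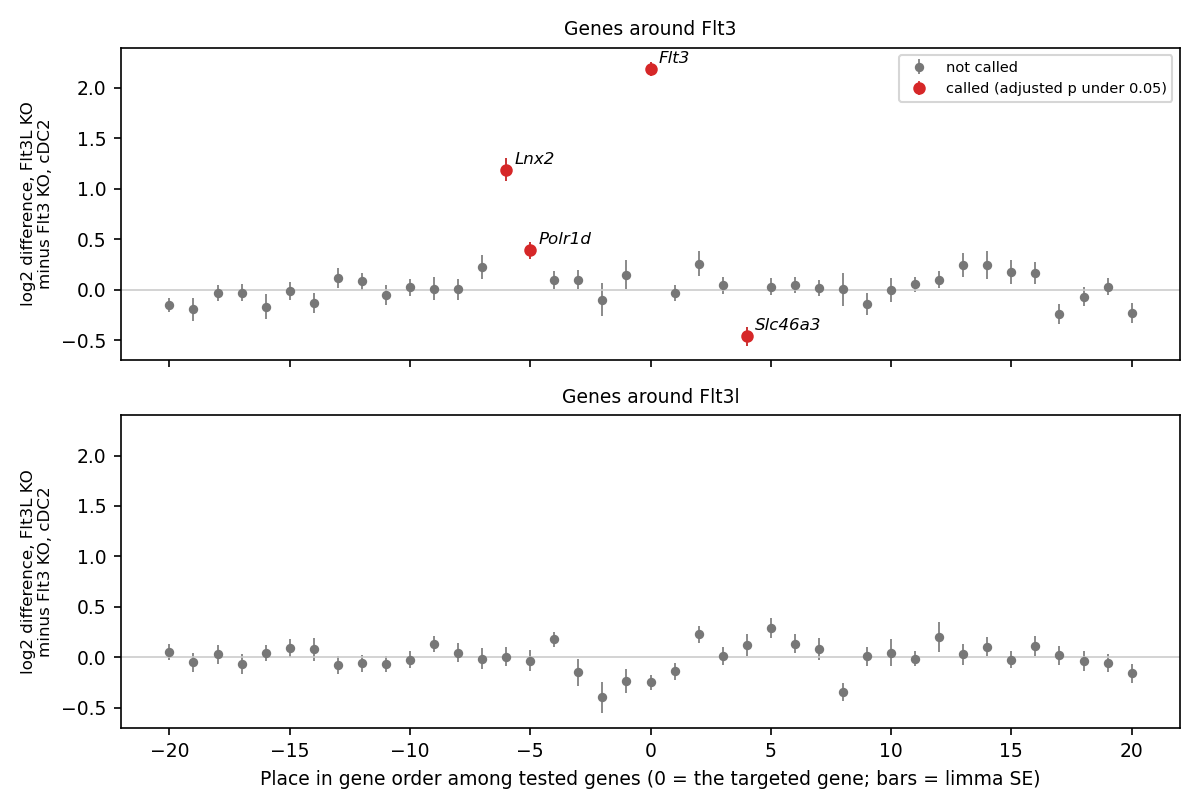
Log2 difference (Flt3L KO cDC2 minus Flt3 KO cDC2, with limma's SE) of the 20 tested genes on each side of Flt3 (top) and Flt3l (bottom), in gene order, with the targeted gene at place 0. Lnx2 (1.19), Polr1d (0.39) and Slc46a3 (-0.46) are called beside Flt3, and no gene is called beside Flt3l.

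The same contrast in cDC1 rests on 4 arrays of its own and called 132 genes (0.883%), of which 33 were higher (0.221%) and 99 lower (0.662%) in Flt3L KO. Of the 139 genes called in cDC2, 18 were called in cDC1 too, which is 12.9% of the first list and 13.6% of the second, and 17 of the 18 had the same direction. The 7 higher in both were Flt3, Mid1, Lnx2, Ifi27l2a, Polr1d, Gnb4 and AI506816. Cd209a, Hpgd, Adgrl3, Prdm1 and Fam135a were among the 10 lower in both. Mid1 read 97.0 and 135 in Flt3 KO and 1068 and 804 in Flt3L KO cDC1 (log2 difference 3.02, adjusted p = 4.81e-05), close to its 2.46 in cDC2. Across genes, which are not independent replicates, the differences of the branches had a Pearson correlation of 0.329.

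A test of the difference between the branches called 17 genes (0.114%), 11 with the higher value in cDC2 (0.0736%) and 6 with the lower (0.0401%), and 7 of these were also called in cDC2. Cd36 was called in both branches with opposite signs. It was higher with the ligand lost in cDC2 (0.98) and lower in cDC1, where it read 1194 and 1160 in Flt3 KO and 712 and 808 in Flt3L KO arrays (log2 difference -0.63, SE 0.10, adjusted p = 0.0195), and the branches differed by 1.61 (adjusted p = 0.00129). In cDC1, Abca9 read 28.0 and 24.1 in Flt3 KO and 27.6 and 29.6 in Flt3L KO arrays, near the lower quartile, and the branches differed by -1.26 (adjusted p = 0.00363). Mertk read 28.9 and 27.3 in Flt3 KO and 29.6 and 27.6 in Flt3L KO cDC1, with a difference between branches of 0.73 (adjusted p = 0.0467). The C1q genes did not pass this test. C1qa in cDC1 read 69.4 and 69.7 in Flt3 KO and 82.4 and 88.0 in Flt3L KO arrays, and the branches differed by 0.78 (adjusted p = 0.244). Clec4e and Treml4 also missed it, with adjusted p of 0.107 and 0.0527. The count of 17 fell to 4 without Flt3L KO cDC2 replicate 1 and rose to 29 without Flt3L KO cDC2 replicate 2.

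**Figure D5:**
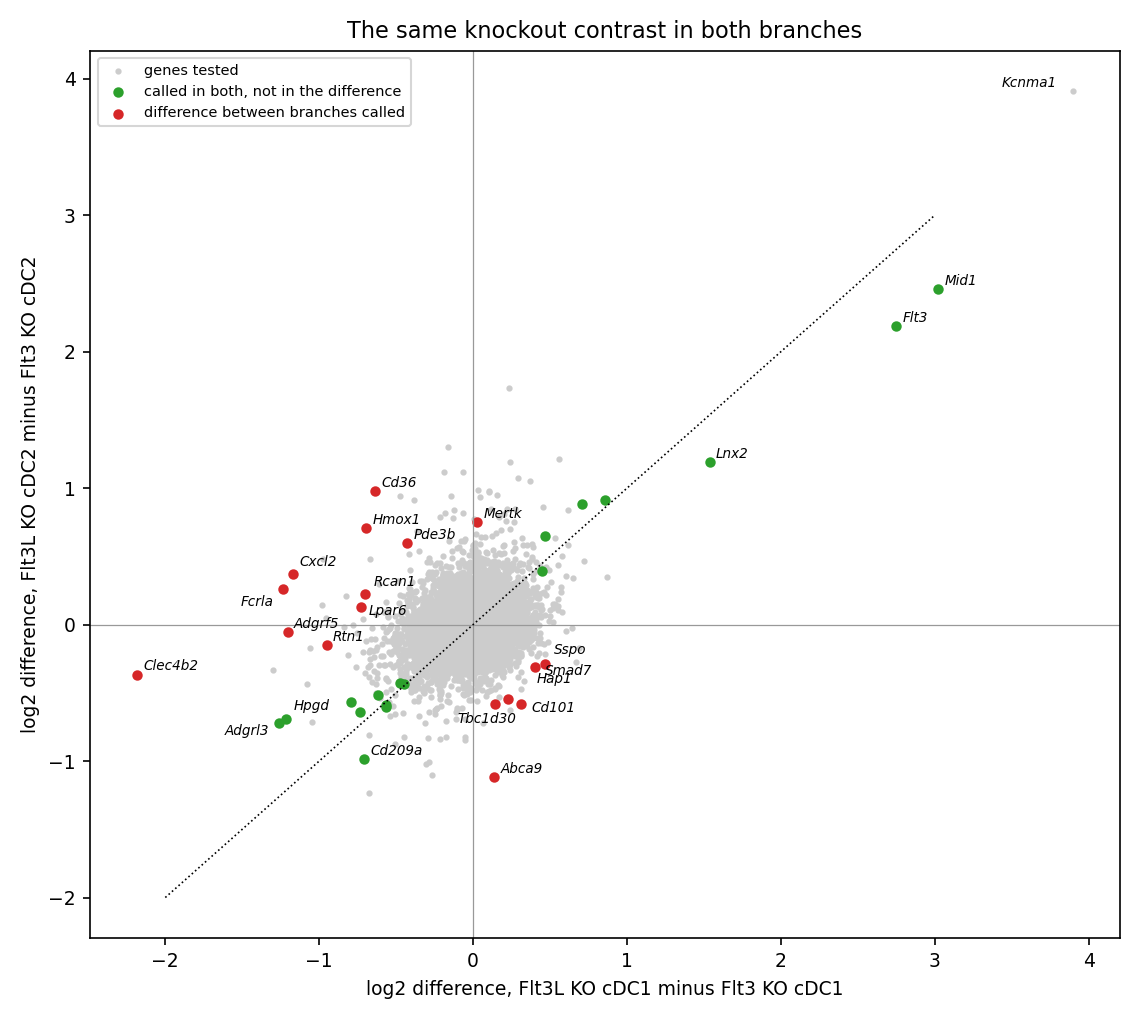
Log2 difference of Flt3L KO minus Flt3 KO in cDC1 (horizontal) and cDC2 (vertical) for all genes tested, with the dotted line marking equal differences. Flt3, Mid1 and Lnx2 lie near the line in both branches, and the 17 genes called in the difference (red) include Cd36, higher in cDC2 and lower in cDC1.

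Many processes gave no call between the knockouts. By limma none of 31 tested maturation genes was called (range -0.33 to 0.30), nor any of 18 for MHC class II presentation (-0.32 to 0.33), 26 cytokine genes (-0.40 to 0.46) or 36 genes of oxidative phosphorylation (-0.17 to 0.17). Among markers of other splenic cells, no tested marker of B cells (13), T cells (11), NK cells (7), neutrophils (7) or erythroid cells and platelets (7) was called. Of 12 tested pDC markers 1 was called (8.33%, against 0.930% of all genes). This was Atp1b1, a subunit of the sodium pump, which read 57.3 and 57.7 in Flt3 KO and 90.7 and 80.7 in Flt3L KO arrays (log2 difference 0.57, adjusted p = 0.0443). The call of Atp1b1 was lost without a filter on dim genes and with any array left out. Siglech, a defining pDC marker, had a log2 difference of -0.12 and did not pass. Of 8 tested markers of plasma cells, basophils and mast cells 1 was called (12.5%), the Prdm1 already given as lower. The summed B cell markers were 2309 to 2399 in Flt3 KO and 2544 to 2633 in Flt3L KO arrays, with WT at 2578 to 2594. The summed T cell markers were 803 to 821 in Flt3 KO and 837 to 899 in Flt3L KO arrays. These counts show only that no member passed at 2 arrays a group.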

How the data were processed

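RNA of sorted splenic cDC1 and cDC2 was amplified and biotin-labelled with Ambion and GeneChip kits and hybridised to arrays, per the labels' protocols. The deposited values are linear intensities for 30177 probe sets, and their summarisation and normalization are not given in the sources used here. GEO's platform annotation, which can be old, gave 21789 probe sets 1 gene symbol, 1621 several and 6767 none. Values were taken to log2 as deposited, the probe set of highest mean was kept for each of 19938 genes, and the dimmest share of 0.25 was left out (mean log2 under 4.78) except Flt3 and Flt3l. In R 4.3.3, limma 3.58.1 fitted 1 mean per group on 12 arrays, with 6 residual degrees of freedom, in scripts tested on simulated data. Named genes were the targeted pair, the 12 largest called rises and 12 largest falls (without predicted, small RNA and receptor segment genes), up to 4 called genes per list, called neighbours of the targeted loci, 8 genes of the branch difference and identity markers. Members and lists were chosen with earlier results of these data known. Alternatives changed the normalization, offset, filter, variance prior, probe set rule, arrays fitted and replicate block, or left out each array. Promoter and miRNA sequences are RefSeq's (GRCm38.p6).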

Additional observations from a re-analysis of the deposited data

Results flagged for a closer look

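In 17 genes the effect of ligand loss against receptor loss differed between cDC2 and cDC1 by limma's test of the difference itself (adjusted p under 0.05, 0.114% of genes tested). Each value below is the log2 difference (Flt3L KO minus Flt3 KO) in cDC2 minus that in cDC1. Those above 0 were Clec4b2 (1.82), Cd36 (1.61), Cxcl2 (1.54), Fcrla (1.50), Hmox1 (1.40), Adgrf5 (1.15), Pde3b (1.03), Rcan1 (0.92), Lpar6 (0.86), Rtn1 (0.80) and Mertk (0.73). Those below 0 were Abca9 (-1.26), Cd101 (-0.89), Hap1 (-0.77), Sspo (-0.76), Tbc1d30 (-0.72) and Smad7 (-0.71). Cd36 had the lowest adjusted p (0.00129), followed by Abca9 (0.00363).

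Only part of the 17 rested on a change in cDC2. Cd36, Abca9, Cd101, Tbc1d30, Hap1, Pde3b and Mertk were called in cDC2. Clec4b2, a C-type lectin, read 366 and 369.6 in Flt3 KO and 63.1 and 104 in Flt3L KO cDC1, against 42.6 and 35.4 in Flt3 KO and 32.7 and 27.7 in Flt3L KO cDC2. Cxcl2, a chemokine for neutrophils, read 233 and 227 in Flt3 KO and 94.4 and 110.4 in Flt3L KO cDC1, and 102 and 106 in Flt3 KO and 126 and 142 in Flt3L KO cDC2. Hmox1, which degrades haem, was called in neither branch alone, with a log2 difference of 0.71 in cDC2 and -0.70 in cDC1.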

How the results depend on the processing

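Every one of the 139 calls kept its direction under each alternative in which the gene was tested (23 were not tested when the dimmest share of 0.5 was left out), but the counts moved. Calls in cDC2 numbered 242 (111 higher, 131 lower) on log2(intensity + 16), 268 (112 higher, 156 lower) with a trended and robust variance prior, 224 (127 lower) without the WT cDC1 arrays and 183 (111 lower) with the dimmest share of 0.5 left out. With 1 of the 4 cDC2 arrays left out they ran from 8 to 130 (higher 7 to 89, lower 1 to 41). In cDC1 the 132 calls became 305, 86, 267, 401, 78 and 349 on log2(intensity + 16), without a filter, with the dimmest share of 0.5 left out, with the trended prior, on the arrays compared alone and without the WT cDC1 arrays, and 16 to 63 with 1 cDC1 array left out. The 17 calls in the difference between branches became 5 with quantile normalization, 27 on log2(intensity + 16), 7 without a filter, 42 with the trended prior and 6 on the arrays compared alone, and 2 to 29 with 1 array left out. The cause of these moves was not tested.

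With the replicate number as a block, 127 genes were called in cDC2 (117 of the 139 shared), 103 in cDC1 and 8 in the difference. Of the named genes called, Bcl2l1, Kdr, Mir18, Mmp12, Polr1d and Slc46a3 (6) lost their calls with the block. Replicate deviations of the 2 knockout cDC2 groups correlated at 0.17, but these are only 2 pairs that share a number. Of the 57 named genes called, 8 kept their call under every alternative that tested them. Medians of 5 gene lists, an alternative chosen after seeing the data, were computed too. That of the macrophage list was 0.67 with the dimmest share of 0.5 left out, over only the members that remained. No called gene and none of these medians changed sign, but the balance of higher and lower calls moved with 1 array left out. The lone array of a group was assumed to vary like the other groups, and the deposited values carry no detection calls, so dim genes cannot be told from background.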

Other observations

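Some called genes fell under no rule or list of the report and were picked after their values were seen. Nlrp3, the sensor of an inflammasome, read 2310.3 and 2340 in Flt3 KO cDC2 and 1672 and 1812 in Flt3L KO cDC2 (log2 difference -0.42, limma adjusted p = 0.0304). Mefv, which encodes the inflammasome protein pyrin, read 1075 and 1049 in Flt3 KO and 743 and 784 in Flt3L KO arrays (log2 difference -0.48, adjusted p = 0.0319). Among the higher genes, Cfb, complement factor B, read 90.9 and 87.5 with the receptor lost and 181 and 125 with the ligand lost (log2 difference 0.75, adjusted p = 0.0268). Pilra, an inhibitory receptor of myeloid cells, read 111 and 80.6 in Flt3 KO and 198 and 164 in Flt3L KO arrays (log2 difference 0.93, adjusted p = 0.0165).

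Other single genes of no list that were called higher in Flt3L KO cDC2 included Aspm (0.56), Ccnf (0.54), Cenpi (0.46), Fam83d (0.52) and Asf1b (0.52), given as log2 differences. Cdkn2b, an inhibitor of cyclin-dependent kinases, was higher too (0.51, adjusted p = 0.0119). These genes were also picked from the calls after their values were seen, so they are no further test of the cell cycle list. None of them kept its call without Flt3L KO replicate 1.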
